A study of Mus musculus with 6 samples.

Results

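The aryl hydrocarbon receptor gene Ahr, its partner genes Arnt and Arnt2, its feedback inhibitors Ahrr and Tiparp, and its target genes Cyp1a1, Cyp1b1 and Nqo1 were taken by name from the table of counts. All 8 were found among its 26814 gene symbols, and all 8 passed the filter that left 15009 genes for testing. The counts come from the top lips of adult female mice on a C57BL/6J background, 3 of them wild type (WT) and 3 carrying the targeted Gtf2ird1 tm1Hrd mutation, called knockout (KO). Each mouse gave 1 mRNA library, so n = 3 per genotype, and neither the labels nor the methods name a receptor ligand or any other treatment. The top lip holds skin, hair follicles, glands and muscle, and the KO lips were overgrown and wrinkled. In such bulk libraries fewer cells of a type and less RNA per cell cannot be told apart. Libraries held between 20164081 and 29491767 counts on genes, and 3 counts in a library corresponded to between 0.0986 and 0.154 CPM, the count scaled to the depth of its library.

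The aryl hydrocarbon receptor is a ligand-activated transcription factor of the bHLH-PAS family. Without ligand it waits in the cytoplasm in a complex with HSP90 and p23, and with ligand it enters the nucleus, pairs with ARNT and binds xenobiotic response elements at genes such as Cyp1a1. The response is shut off by its own products, since the receptor repressor AHRR competes for ARNT and the ADP-ribosyltransferase TIPARP modifies the receptor. In skin the receptor responds to dioxins, ultraviolet photoproducts and tryptophan metabolites, and is known for roles in keratinocyte differentiation and barrier formation. NQO1 is shared with a second pathway, the oxidative stress response driven by NRF2 (gene Nfe2l2).

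The targeted gene Gtf2ird1 was read first as a check of the labels. It had 78.2, 70.2 and 70.7 CPM in the WT libraries and 166, 162 and 144 CPM in the libraries labelled KO, with a log2 fold change of 1.11 and a standard error (SE) of 0.13 (adjusted p = 0.00180, edgeR's quasi-likelihood test). Reads per gene do not separate a targeted from an intact allele, and the study's methods state that genotypes were checked again on tail biopsies. Because the value goes against a simple loss, directions are given for libraries by their label. Among the libraries labelled KO, replicate 3 stood nearest to the WT, with Pearson correlations of log2 CPM across the tested genes of 0.948 to 0.955 with the WT libraries, against 0.907 to 0.933 for KO1 and KO2. Keratinocyte genes that define the epidermis were abundant in both genotypes, with mean Krt5 levels of 4888 CPM (WT) and 4762 CPM (KO label).

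The 250 bases before the RefSeq start (GRCm38.p6) were read for 7 of the 8 genes, Ahr having no entry, and searched on both strands for GCGTG, the core letters of the xenobiotic response element. A match was present in 5 of the 7, and 28.2% of 32851 promoter windows of the same length held at least 1. Ahrr had 3 matches, a number reached by 2.77% of windows, at 107, 82 and 27 bases before the start. Cyp1a1 had 1 match at 54 bases, Cyp1b1 1 at 76, Tiparp 1 at 170 and Arnt 1 at 29, and the windows of Nqo1 and Arnt2 held none. The letters TGACNNNGC, the core of the antioxidant response element used by NRF2, were matched in Arnt, at 127 and 50 bases, and in 10.2% of all windows. The 3 windows below belong to the genes that differed between the genotypes in the test that follows, with GCGTG or its reverse complement in capitals; a match describes letters and not a bound site. Ahrr is read from chr13:74292332-74292581 on the minus strand, Cyp1a1 from chr9:57697363-57697612 on the plus strand and Nqo1 from chr8:107403206-107403455 on the minus strand. The Cyp1a1 window precedes its RefSeq start, which lies inside the gene as GENCODE M21, used below for positions and lengths, places it (57687928 to 57703824).
Ahrr: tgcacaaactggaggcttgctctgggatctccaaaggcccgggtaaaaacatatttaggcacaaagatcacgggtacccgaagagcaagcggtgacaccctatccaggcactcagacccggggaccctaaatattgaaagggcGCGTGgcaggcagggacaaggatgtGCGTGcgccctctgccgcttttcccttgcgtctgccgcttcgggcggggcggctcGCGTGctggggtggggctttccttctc
Cyp1a1: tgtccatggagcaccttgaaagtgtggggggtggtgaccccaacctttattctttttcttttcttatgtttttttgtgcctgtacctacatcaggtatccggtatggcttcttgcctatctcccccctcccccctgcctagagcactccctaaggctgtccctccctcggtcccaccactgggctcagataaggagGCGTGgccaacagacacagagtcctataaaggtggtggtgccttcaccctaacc
Nqo1: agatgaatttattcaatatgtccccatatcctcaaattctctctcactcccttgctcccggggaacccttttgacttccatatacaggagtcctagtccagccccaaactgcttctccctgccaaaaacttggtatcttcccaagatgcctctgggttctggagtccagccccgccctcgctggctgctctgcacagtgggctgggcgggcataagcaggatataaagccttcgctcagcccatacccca

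Of the 8 genes, Ahrr and Nqo1 were higher in the KO-labelled libraries, and Cyp1a1 lower, with adjusted p-values under 0.05 (edgeR's quasi-likelihood test, Benjamini-Hochberg over all 15009 genes). The same rule called 6.47% of all tested genes, 4.38% as higher and 2.09% as lower. In 5 of the 8 genes, Arnt, Ahrr, Cyp1a1, Cyp1b1 and Nqo1, the 3 values labelled KO lay on the same side of all 3 WT values, a separation that 31.5% of all tested genes showed. The median log2 fold change of the 8 was 0.34, beside -0.02 over all tested genes.

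**Figure D1:**
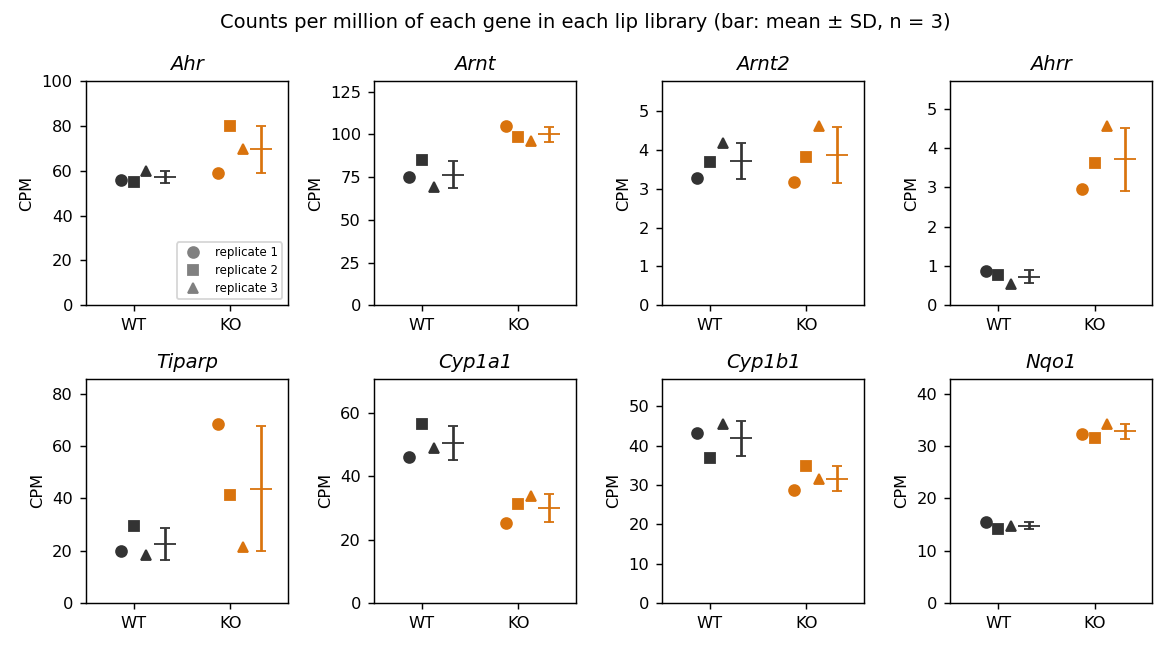
CPM (vertical axes, each starting at 0) of the 8 genes in the 6 lip libraries, with WT in black and KO in orange; symbols give the replicate number and bars the mean and SD of 3 libraries. Ahrr and Nqo1 sit higher and Cyp1a1 lower in all 3 KO libraries, while Tiparp spreads from 21.2 to 68.6 CPM among them.

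None of the receptor and partner genes passed the test, Ahr, Arnt and Arnt2 having adjusted p-values of 0.220, 0.0997 and 0.869, where the exact test also passed none of them and DESeq2 passed Arnt, which had an unadjusted p of 0.0167. Ahr (chromosome 12, 35497974 to 35535038, minus strand) encodes the ligand-binding subunit. Its level was 56.1, 55.1 and 60.1 CPM in the WT libraries and 59.2, 80.1 and 69.8 CPM in the KO-labelled ones. KO1 lay within the WT range, so the genotypes overlapped, and the log2 fold change of 0.29 (95% confidence interval -0.05 to 0.62, adjusted p = 0.220) did not pass. On the linear scale that interval runs from 0.968-fold to 1.54-fold.

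Arnt (chromosome 3, 95434388 to 95497240, plus strand) encodes the partner that the receptor needs in order to bind DNA, and which hypoxia-inducible factors also use. It had 75.1, 85.0 and 69.5 CPM in the WT libraries and 105, 98.7 and 96.3 CPM in the KO-labelled ones, without overlap. The log2 fold change was 0.39 (SE 0.13, 95% confidence interval 0.09 to 0.68) with an adjusted p of 0.0997, short of the threshold. DESeq2 gave 0.0414 and edgeR's exact test 0.184, and without KO replicate 3 the quasi-likelihood test gave 0.0450 at a log2 fold change of 0.42. Arnt2 (chromosome 7, 84246278 to 84410176, minus strand), a paralogue known from brain and kidney, was scarce, with 3.27, 3.70 and 4.18 CPM in the WT libraries and 3.17, 3.81 and 4.62 CPM in the KO-labelled ones. The values of the genotypes interleaved, and the log2 fold change of 0.06 (adjusted p = 0.869) had a 95% confidence interval of -0.44 to 0.56, or 0.738-fold to 1.47-fold. Its sign turned with the libraries used, to -0.03 without WT replicate 1 and -0.08 without KO replicate 3. Per length, Arnt stood at 1.04 ± 0.149 times the level of Ahr in the WT and 1.13 ± 0.216 times under the KO label (SD, n = 3), and Arnt2 at 0.0511 ± 0.0100 and 0.0406 ± 0.00925 times the level of Arnt. Ahr overlaps Gm48236, and Arnt2 overlaps Gm30873, on the opposite strand.

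Ahrr (chromosome 13, 74211118 to 74292331, minus strand) encodes the receptor repressor, which lacks ligand binding, holds ARNT and occupies response elements without activating them; the gene is itself induced by the receptor. It rose 5.06-fold (95% confidence interval 3.22 to 7.98) in the KO-labelled libraries. The reads were 24, 18 and 12 in the WT libraries and 58, 110 and 100 in the KO-labelled ones, which gave 0.871, 0.765 and 0.540 CPM against 2.97, 3.62 and 4.57 CPM. Every KO value was above every WT value, and all WT values were below 1 CPM. The means were 0.725 ± 0.169 and 3.72 ± 0.807 CPM (SD, n = 3), and the log2 fold change was 2.34 (SE 0.28, adjusted p = 0.00251). Because the filter asked for at least 1 CPM in at least 3 libraries, Ahrr entered the test through the KO-labelled libraries alone. With no filter the adjusted p was 0.000716, and with at least 10 counts required in every library it was 0.00312. In fits that left out each library in turn, with the filter lowered to 2 libraries, log2 fold changes ran from 2.17 to 2.53 and every adjusted p was at or under 0.0201. Read per length within each library, Ahrr stood at 0.0101, 0.00907 and 0.00586 of the level of Ahr in the WT libraries and at 0.0328, 0.0295 and 0.0428 in the KO-labelled ones. Per length, Ahrr mRNA thus stayed far scarcer than Ahr mRNA in every library, and the share was higher in all 3 KO-labelled libraries. Protein levels were not measured.

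Tiparp (chromosome 3, 65528410 to 65555518, plus strand), the other feedback gene and a sensitive receptor target, followed a different pattern. It had 20.0, 29.6 and 18.3 CPM in the WT libraries and 68.6, 41.2 and 21.2 CPM in the KO-labelled ones. KO1 and KO2 were above every WT library, but KO3 lay within the WT range. The means were 22.6 ± 6.07 and 43.7 ± 23.8 CPM (SD, n = 3), and the log2 fold change of 0.95 (SE 0.39, 95% confidence interval 0.05 to 1.84) had an adjusted p of 0.152. The exact test gave 0.0422 and DESeq2 0.0528. Without KO replicate 3 the log2 fold change was 1.28 (adjusted p = 0.00579), and without KO replicate 1 it was 0.53 (adjusted p = 0.396). Tiparp shares 223 exonic bases with 4931440P22Rik on the opposite strand, which held between 8 and 15 counts in a library.

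Cyp1a1 (chromosome 9, 57687928 to 57703824, plus strand) encodes the cytochrome P450 that oxidises polycyclic aromatic hydrocarbons and is the classical readout of receptor activity. It fell to 0.593 of the WT level in the KO-labelled libraries (95% confidence interval 0.461 to 0.763). The WT libraries had 46.0, 56.6 and 49.0 CPM and those labelled KO 25.2, 31.1 and 33.6 CPM. Every KO value was below every WT value, and the log2 fold change was -0.75 (SE 0.16, adjusted p = 0.0328). The call was lost when any library other than KO replicate 3 was left out, with log2 fold changes between -0.82 and -0.58 and adjusted p-values between 0.0883 and 0.169; without KO replicate 3 the adjusted p was 0.00526. With no filter it was 0.0594. Over 10 other fits of all 6 libraries the adjusted p lay between 0.00507 and 0.0594.

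Cyp1b1 (chromosome 17, 79701537 to 79715061, minus strand), a related P450 that hydroxylates estrogens and polycyclic hydrocarbons, had values in the same direction. The WT libraries had 43.3, 36.9 and 45.6 CPM and those labelled KO 28.6, 34.8 and 31.5 CPM. The genotypes did not overlap, with WT2 and KO2 the nearest values, and the log2 fold change of -0.41 (SE 0.15, 95% confidence interval -0.74 to -0.07) did not pass at an adjusted p of 0.115. Among 10 other fits of all libraries the adjusted p ranged from 0.0895 to 0.278. Per length, Cyp1a1 stood at 2.56 ± 0.561 times the level of Cyp1b1 in the WT libraries and at 1.98 ± 0.218 times in the KO-labelled ones (SD, n = 3), and KO3, at 2.24, lay within the WT range of 2.23 to 3.21.

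Nqo1 (chromosome 8, 107388225 to 107403206, minus strand) encodes the quinone reductase that detoxifies quinones by 2-electron reduction. It rose 2.22-fold (95% confidence interval 1.80 to 2.74) in the KO-labelled libraries, opposite in direction to Cyp1a1. The values were 15.5, 14.1 and 14.7 CPM in the WT libraries and 32.4, 31.6 and 34.3 CPM in the KO-labelled ones, with SDs of 0.735 and 1.39 CPM around means of 14.8 and 32.8 CPM. The log2 fold change was 1.15 (SE 0.13, adjusted p = 0.00184). It passed in all 6 fits that left out a library, with log2 fold changes from 1.12 to 1.23 and adjusted p-values from 0.00103 to 0.0184.

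**Figure D2:**
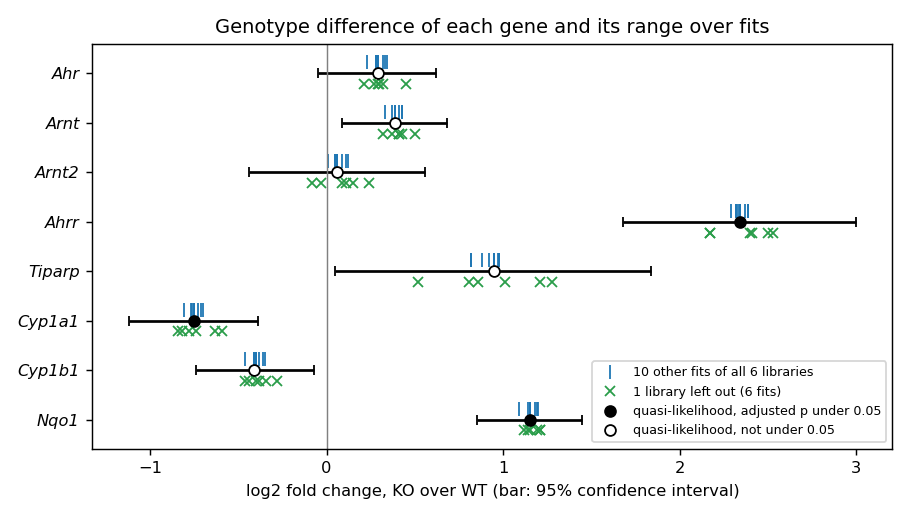
Log2 fold change of each gene, KO over WT, from edgeR's quasi-likelihood test (circles, filled where the adjusted p was under 0.05) with the 95% confidence interval, the 10 other fits of all 6 libraries (blue ticks) and the 6 fits that left out a library with the filter at 2 libraries (green crosses). The crosses stay between 2.17 and 2.53 for Ahrr, while those of Tiparp run from 0.52 to 1.28 and those of Arnt2 fall on either side of 0.

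Other tests called further genes of the group. With edgeR's exact test, which called 14.9% of all tested genes, Tiparp joined Ahrr, Nqo1 and Cyp1a1. DESeq2's Wald test, which called 14.2% of the genes it gave an adjusted p, added Arnt instead. Without KO replicate 3, when 33.0% of tested genes passed, 4 of 7 tested members passed (Nqo1, Tiparp and Arnt higher, Cyp1a1 lower), and Ahrr could not be tested there because only 2 KO libraries were left to reach 1 CPM. Ahr, Arnt2 and Cyp1b1 passed in none of these fits.

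Levels of different genes are compared here as CPM per kilobase of merged exons, a quantity that depends on the annotated length. In the WT libraries Cyp1a1 was the most abundant of the 8, at 18.1 ± 1.96 CPM per kb (SD, n = 3). Arnt (9.55 ± 0.980), Nqo1 (9.50 ± 0.474) and Ahr (9.27 ± 0.432) followed within each other's spread. Cyp1b1 (7.18 ± 0.764) and Tiparp (5.20 ± 1.39) came next, each mean lying outside the SD of the other, and Arnt2 (0.483 ± 0.0596) and Ahrr (0.0768 ± 0.0179) were lower by an order of magnitude or more. In the KO-labelled libraries the order changed at the top, with Nqo1 at 21.1 ± 0.894 CPM per kb, above Arnt at 12.5 ± 0.563, Ahr at 11.3 ± 1.70 and Cyp1a1 at 10.8 ± 1.55, which were not separated by their spread. Tiparp followed with the widest SD, 5.46 CPM per kb. Cyp1b1 had 5.42 ± 0.532, Arnt2 0.503 ± 0.0942 and Ahrr 0.394 ± 0.0855 CPM per kb, so that the ranges of mean ± SD of Ahrr and Arnt2, apart in the WT, overlapped there. Among 14223 tested genes with a length, the mean over all libraries placed Nqo1 at percentile 77.5, Cyp1a1 at 76.4, Ahr at 68.1 and Ahrr at 1.55.

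**Figure D3:**
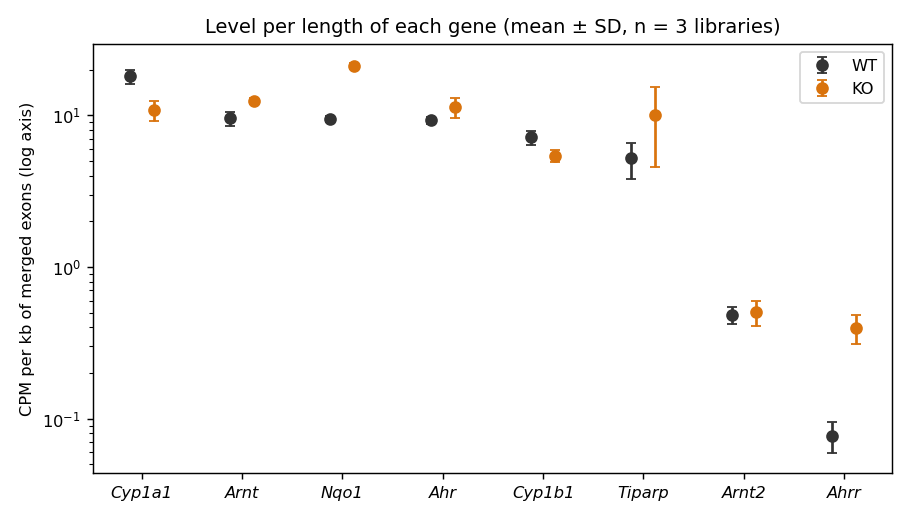
CPM per kilobase of merged exons (log axis) of the 8 genes, ordered by their WT level, as mean and SD of 3 libraries, with WT in black and KO in orange. Cyp1a1 leads in the WT at 18.1 and Nqo1 in the KO-labelled libraries at 21.1, while Ahrr is lowest in both.

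The chaperone genes that hold the receptor in the cytoplasm included 1 of 4 that passed the test, beside 6.47% of all tested genes. Hsp90aa1, the stress-inducible HSP90 isoform, had 49.9, 71.5 and 79.0 CPM in the WT libraries and 288, 366 and 130.1 CPM in the KO-labelled ones (log2 fold change 1.97, SE 0.36, adjusted p = 0.0192). KO3 was the lowest of the KO values and still above every WT value. The call was lost without any 1 library other than KO replicate 3 (adjusted p of 0.0517 to 0.0985). Hsp90ab1, the constitutive isoform, had a log2 fold change of 0.53 (adjusted p = 0.0899), and Ptges3, encoding p23, one of 0.25 (adjusted p = 0.189). All KO-labelled values of both genes lay above their WT values. For Hsp90ab1 the exact test gave 0.0685 and DESeq2 0.00596, and for Ptges3 they gave 0.430 and 0.161. The exact test, which called 14.9% of all tested genes, called 1 of the 4, and DESeq2, which called 14.2%, called 2.

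Of 12 other bHLH-PAS genes, 11 had counts, 7 were tested and 1 passed, beside 6.47% of all tested genes. Clock, a core circadian activator, had 67.4, 66.5 and 80.2 CPM in the WT libraries and 189, 201 and 95.1 CPM in the KO-labelled ones (log2 fold change 1.18, SE 0.27, adjusted p = 0.0422). The call was lost without any 1 library other than KO replicate 3 (adjusted p of 0.0933 to 0.165). Hif1a and Epas1, the hypoxia-inducible factors that share ARNT, had log2 fold changes of 0.50 (adjusted p = 0.132) and -0.64 (adjusted p = 0.217). Arntl, the partner of CLOCK, averaged 32.5 ± 13.7 CPM (WT) and 31.7 ± 15.2 CPM (KO label; SD, n = 3). Arntl2 had the largest log2 fold change of the 7, 1.23, with all KO-labelled values above the WT values. Its adjusted p was 0.0515, where the exact test gave 0.00109 and DESeq2 0.000796. The exact test, which called 14.9% of all tested genes, and DESeq2, which called 14.2%, each called 2 of the 7 as higher. The median over the 7 was -0.04, and 4 of them had log2 fold changes below 0.

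A list of 12 other genes known as receptor targets gave 10 tested genes, of which 3 rose and 1 fell in the KO-labelled libraries, with a median log2 fold change of 0.11. The same test called 4.38% of all tested genes as higher and 2.09% as lower. The exact test, which called 14.9% of all tested genes, and DESeq2, which called 14.2%, each called 4 of the 10 as higher and 1 as lower. Ereg had a log2 fold change of 1.30 with overlapping genotypes. Its adjusted p was 0.0782, where the exact test gave 0.00220 and DESeq2 0.00360. Gsta1, a glutathione transferase, had 10.9, 8.08 and 5.13 CPM in the WT libraries and 24.1, 23.6 and 19.1 CPM in the KO-labelled ones (log2 fold change 1.47, SE 0.27, adjusted p = 0.0184). Gsta1 is nearly identical in sequence to Gsta2. The study's methods state that only uniquely mapped reads were counted, so reads that fit both genes equally would be missing from both. Gsta2 had a log2 fold change of -0.75 (adjusted p = 0.143). Serpinb2, a protease inhibitor of keratinocytes, rose from 55.0 ± 21.6 to 135 ± 35.9 CPM (log2 fold change 1.30, adjusted p = 0.0433). Nfe2l2, which encodes NRF2, rose from 128, 109 and 112 CPM to 222, 238 and 255 CPM (log2 fold change 1.03, SE 0.13, adjusted p = 0.00307), with an adjusted p of at most 0.0286 when a library was left out. Cyp2s1, an epithelial P450, fell, with means of 69.0 ± 15.4 CPM (WT) and 36.5 ± 3.90 CPM (KO label; log2 fold change -0.92, SE 0.19, adjusted p = 0.0292). Gsta1 lost its call without WT replicate 2, KO replicate 1 or KO replicate 2 (adjusted p of 0.0545 to 0.0889), Serpinb2 without WT replicate 1 or 3 or KO replicate 1 or 2 (0.120 to 0.170), and Cyp2s1 without WT replicate 1 or 2 or KO replicate 1 or 2 (0.0831 to 0.153).

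The NRF2 pathway was described because Nqo1 belongs to both. Of its 6 regulator genes Nfe2l2 alone passed. Keap1, the repressor that marks NRF2 for degradation, had a log2 fold change of -0.06 (adjusted p = 0.847), Bach1, a competing repressor, one of 0.38 (adjusted p = 0.203), and Mafg, a dimer partner, one of -0.02 (adjusted p = 0.910). Among 18 other NRF2 target genes, all tested, 1 passed and the median log2 fold change was 0.07. That gene, G6pdx, which feeds NADPH production, rose from 125 ± 3.89 to 184 ± 16.9 CPM (log2 fold change 0.55, adjusted p = 0.0419), and lost the call without any 1 library other than KO replicate 3 (0.0691 to 0.167). The abundant targets Fth1, Prdx1 and Ftl1 had log2 fold changes of -0.61 (adjusted p = 0.108), 0.25 (adjusted p = 0.271) and -0.33 (adjusted p = 0.383). Slc7a11 had the largest log2 fold change of the 18, 1.20, with all KO-labelled values above the WT values and KO3 nearest to them. Its adjusted p was 0.0925, where the exact test gave 0.00614 and DESeq2 0.00954. The exact test, which called 14.9% of all tested genes, and DESeq2, which called 14.2%, each called 2 of the 18 as higher. By the quasi-likelihood test the share that passed, 5.56%, was near the 6.47% of all tested genes. Nqo1 and Gsta1, both higher, were listed with the receptor genes and not counted here.

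Tiparp belongs to the family of mono-ADP-ribosyltransferases, and of 11 of its relatives 5 rose in the KO-labelled libraries, with a median log2 fold change of 0.44. The quasi-likelihood test called 4.38% of all tested genes as higher. Parp9 had 9.22, 10.7 and 9.62 CPM in the WT libraries and 34.3, 64.5 and 50.8 CPM in the KO-labelled ones (log2 fold change 2.34, SE 0.24, adjusted p = 0.000961). Parp14 (1.90, adjusted p = 0.00304), Parp12 (1.37, adjusted p = 0.0189), Parp10 (1.20, adjusted p = 0.0211) and Parp8 (0.94, adjusted p = 0.00599) rose as well. Parp10 and Parp12 lost their calls without any 1 WT library or KO replicate 2 (adjusted p of 0.0676 to 0.0984). Parp9, Parp10, Parp12 and Parp14 are interferon-inducible genes, and 18 of 20 interferon-stimulated genes rose in the same libraries, with a median log2 fold change of 2.67. That count and median include Mx2, Oas3 and Oasl1, which were below 1 CPM in every WT library. Like Ahrr, these entered the test through the KO-labelled libraries alone. The summed level of the 20 was 112 to 130.3 CPM in the WT libraries, 367 CPM in KO1, 914 CPM in KO2 and 847 CPM in KO3. KO1 thus had the lowest interferon sum of the KO libraries and the highest Tiparp level, and KO3 the lowest Tiparp level. The part of the interferon genes in the values of the 8 genes was not tested.

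Tryptophan metabolites such as kynurenine bind the receptor. Enzymes that make or use kynurenine, and Il4i1, which converts tryptophan to indole-3-pyruvate, were listed together. Of 8 genes 4 were tested and 0 passed edgeR's quasi-likelihood test; 0 had an unadjusted p under 0.05, as 29.6% of all tested genes did, and the exact test and DESeq2 called 0 as well. Il4i1, at 3.41 ± 0.00860 CPM (WT) and 3.32 ± 0.272 CPM (KO label), was the most abundant, and Kmo, which hydroxylates kynurenine, had the largest log2 fold change, 0.56 (adjusted p = 0.184). Ido1 and Tdo2, which start the pathway, held between 1 and 3 and between 1 and 6 counts in a library and were not tested.

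**Figure D4:**
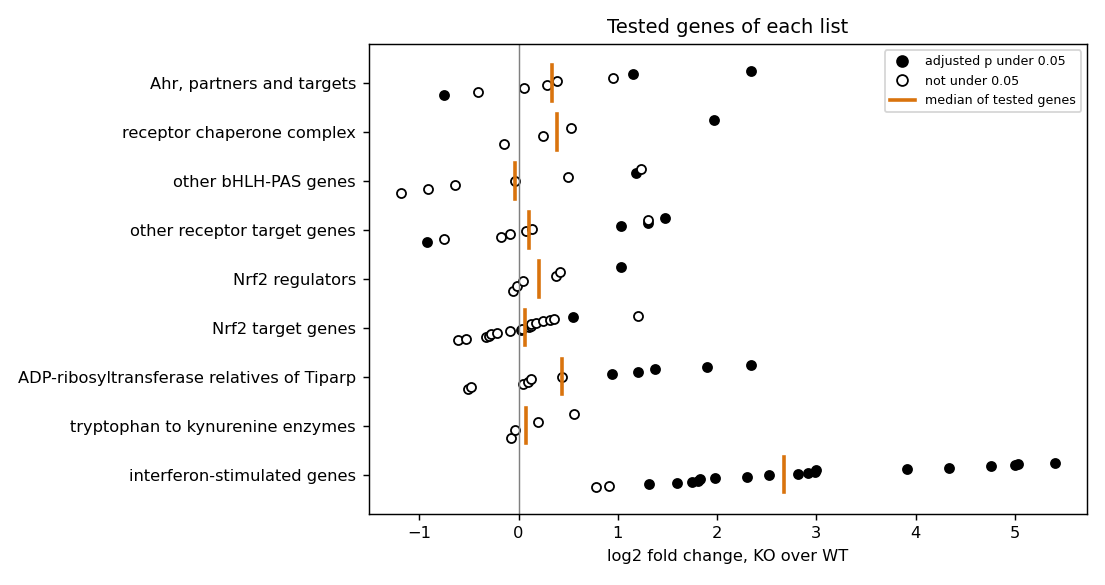
Log2 fold change, KO over WT, of the tested genes of the group and of 8 related lists, 1 point per gene, filled where the adjusted p was under 0.05, with the list's median as an orange bar. The 18 NRF2 targets centre on 0.07, the 8 genes of the receptor group on 0.34 and the interferon-stimulated genes on 2.67.

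Marker lists of the cell types in lip were summed in each library. The sums did not overlap between the genotypes for the suprabasal, hair follicle and skeletal muscle lists and overlapped for the others, and no list was tested as a whole. Counts below at an unadjusted p stand beside the 29.6% of all tested genes under 0.05. Calls stand beside 6.47% of genes for the quasi-likelihood test, 14.9% for the exact test and 14.2% for DESeq2. Without KO replicate 3 the quasi-likelihood test called 33.0%. That fit called 6 of 10 suprabasal markers and 1 of 8 basal markers as higher. As lower it called 6 of 11 hair follicle, 5 of 9 sebaceous, 7 of 12 dermal fibroblast and 6 of 8 endothelial markers. It called 1 sebaceous and 1 dermal fibroblast marker as higher. Of the macrophage and Langerhans cell markers 1 was called higher and 1 lower, and of the T cell markers 1 lower. Suprabasal keratinocyte markers summed to between 20040.3 and 24934 CPM in the WT libraries and to 47632, 40852 and 31028 CPM in KO1, KO2 and KO3, with 1 of 10 genes passing as higher (Ivl, log2 fold change 1.55). The sums rested mainly on Krt1 (means of 8019 CPM in the WT and 18218 CPM under the KO label) and Krt10 (8715 and 13573 CPM). Neither passed the quasi-likelihood test (adjusted p of 0.0584 and 0.163), while the exact test and DESeq2 called both. The exact test and DESeq2 each called 5 of the 10 as higher, and 2 of the 10 had log2 fold changes below 0. Basal keratinocyte markers summed to between 11264 and 12147 CPM in the WT and between 11529.6 and 12805 CPM in the KO-labelled libraries, with 1 of 8 passing as higher (Dst, 1.37). Of 11 hair follicle markers 2 fell (Hoxc13, -0.90, and Lef1, -0.98), and the list summed to between 8601 and 11025 CPM in the WT and between 5654 and 7389 CPM under the KO label. The exact test and DESeq2 each called 4 of them as lower, and 9 were lower at an unadjusted p under 0.05. Of 12 skeletal muscle markers 3 fell (Tnnt3, -1.01, Tnni2, -1.05, and Pvalb, -1.17), with sums of 10419 to 14106 CPM against 4458 to 8876 CPM. All 12 had an unadjusted p under 0.05 and a log2 fold change below 0, the exact test called 10 as lower, DESeq2 9, and the quasi-likelihood test without KO replicate 3 called 11. Sebaceous gland markers summed to between 5323 and 6921 CPM in the WT and between 3452 and 5831 CPM in the KO-labelled libraries, with 1 of 9 higher (Scd3, 3.19) and 1 lower (Awat1, -1.09); the exact test called 1 higher and 2 lower. Dermal fibroblast markers, with 0 of 12 passing edgeR's quasi-likelihood test (2 lower at an unadjusted p under 0.05, 1 lower by the exact test and 1 by DESeq2), summed to between 7009.6 and 9128 CPM in the WT and to 3335, 4067 and 7335 CPM in KO1, KO2 and KO3. Endothelial markers (0 of 8 by the same test, 3 lower unadjusted, 1 by each other tool) summed to between 237 and 272 CPM and between 148 and 257 CPM, macrophage and Langerhans cell markers (1 of 8 higher, the Langerhans cell lectin Cd207, 1.81) to between 786 and 909.9 CPM and between 736 and 1179.6 CPM, and T cell markers (0 of 5, with 1 higher and 1 lower unadjusted, 1 lower by the exact test and 0 by DESeq2) to between 127 and 186 CPM and between 76.8 and 142 CPM. Krt85, Adgre1 and Trdc had no counts under these symbols. The hair follicle and muscle sums and Cyp1a1 were thus lower, and the suprabasal sums, Ahrr and Nqo1 higher, in all 3 KO-labelled libraries. From KO1 to KO3 the suprabasal sums fell, while Ahrr rose (2.97, 3.62 and 4.57 CPM) and Nqo1 had 32.4, 31.6 and 34.3 CPM. The muscle sums (4458, 5687 and 8876 CPM) and Cyp1a1 (25.2, 31.1 and 33.6 CPM) both rose from KO1 to KO3. The sebaceous gland, dermal fibroblast, endothelial, T cell, and macrophage and Langerhans cell sums rose in the same order, so the order was not particular to muscle. The hair follicle and basal sums did not rise at each step. The part of these marker lists in the values of the 8 genes was not tested.

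For each called gene, the 3 genes outside the group whose profile of log2 CPM over the 6 libraries lay nearest were named, by root mean square distance after centring. Nearest to Ahrr were Ak4 (distance 0.214), Sh2d5 (0.221) and Ercc4 (0.230), each with log2 fold changes near 2, from 1.92 for Ercc4 to 2.03 for Sh2d5. Nearest to Cyp1a1 were Tspan12 (0.0543), St3gal5 (0.0724) and Bean1 (0.0810). Nearest to Nqo1 were Pqlc1 (0.0753), Nfe2l2 (0.0788) and 4933404O12Rik (0.0987). The distances describe these 6 libraries alone.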

How the data were processed

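RNA-Seq counts were analysed from 3 WT and 3 KO lip libraries. Per the submitters' processing notes and the study's methods, paired-end reads were mapped to GRCm38 with TopHat2 2.0.8 and Bowtie2 2.1.0. The authors deposited raw counts of reads that HTSeq assigned to each gene, without normalization; the strand setting is not given in the sources used here. Genes reaching 1 CPM in 3 or more libraries entered the test, with edgeR 4.0.16 (R 4.3.3): TMM factors, estimateDisp, glmQLFit (legacy=FALSE) and glmQLFTest across all genes, with Benjamini-Hochberg adjustment and a threshold of 0.05. The SE is the log2 fold change over the square root of F. The study named an exact test, which was run as an alternative with DESeq2 1.42.0, limma-voom (limma 3.58.1), the older quasi-likelihood fit, 3 other scalings, 2 other filters, a threshold of 0.1, a replicate block and left-out libraries. A filter at 2 libraries with left-out libraries was chosen after seeing the data. Positions and merged exon lengths come from GENCODE M21, where 24804 of 26814 symbols matched 1 gene, and promoter sequences from RefSeq (GRCm38.p6). The procedure was tested on simulated data with 200 changed genes. Figures used Python 3.11.15 and matplotlib 3.10.9.

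Members and gene lists were chosen with earlier results of these data known. Named genes followed a rule: the 8 members, Gtf2ird1, up to 4 genes of each pathway list, of each marker list at most 2, and the 3 nearest profiles. Gsta2, Ereg, Arntl2, Slc7a11, Parp10, Mx2, Oas3, Oasl1, Ido1, Tdo2, Krt85, Adgre1, Trdc and the marker genes that passed were named after their values were seen. The values of 1 gene that the rule names are not reported here. Nothing states that mice of the same replicate number were paired, so no block was used. Deviations of same-numbered WT and KO libraries correlated at -0.192, 0.293 and 0.312, and those of differently numbered ones at -0.504 to 0.407. Library pairs of a genotype differed by 59.9 to 198 times the sampling noise (chi-square per degree of freedom), so none was a duplicate. All 6 columns were used, and 0 per-sample columns were left out.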

Additional observations from a re-analysis of the deposited data

How the results depend on the processing

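Ahrr and Nqo1 remained called in each of the 10 alternatives that kept all 6 libraries, and Cyp1a1 in 9 of them; with no filter 0 of the 8 genes were called lower (edgeR's quasi-likelihood test, Cyp1a1 at an unadjusted p of 0.00278), where the exact test and DESeq2 called 1. Over all genes, 657 were higher and 314 lower. The exact test gave 1165 higher and 1073 lower, DESeq2's Wald test 1511 and 898, and an adjusted p under 0.1 gave 1248 and 1281. Lower genes numbered 207 with DESeq2's size factors, 204 with at least 10 counts in every library and 204 with no filter. Leaving out each library in turn gave between 208 (without KO2) and 2496 (without KO3) higher and between 18 (without KO2) and 2395 (without KO3) lower genes, between 1 and 3 higher and between 0 and 1 lower members; with the filter at 2 libraries, between 2 and 4 members were higher and between 0 and 1 lower. The log2 fold change of Arnt2 turned sign without WT replicate 1 (-0.03) and KO replicate 3 (-0.08), with either filter, in a range of -0.08 to 0.24 over all left-out libraries. The replicate block gave 580 higher and 217 lower genes and changed no call among the 8 genes. The numbers were not taken as pairs because nothing states that they pair mice. The causes of these shifts were not tested, except that Ahrr could not pass the filter at 3 libraries once a KO library was left out. Ahrr rested on 12 to 24 counts in a WT library, the lowest of the 8 genes.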
